A study of Homo sapiens with 24 samples.

Results

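The baseline difference between 2 human lung adenocarcinoma cell lines, H1975 and A549, was described from their control cultures. The cultures chosen were those that received PBS, the solvent of Pirfenidone, and no drug: 6 samples of H1975 and 6 of A549, 12 of the 24 samples of the study. In each line 3 samples (replicates 1 to 3) were collected after 6 h and 3 after 24 h, the PBS being added in the volume that matched a dose of 0.75 mg/ml Pirfenidone. The other 12 samples received that dose for the same times and are used here as a second set of arrays for the same line difference. The dose is read from the sample labels, which give no volume. A figure legend of the study gives a higher dose for its A549 transcriptome data. Both lines came from a public cell repository and were kept in RPMI medium with fetal calf serum, antibiotics and glutamine. Each line was derived from a single tumor, so a difference between them is one between these lines. The study describes its data in general as coming from independent experiments, but the sample labels do not say whether the replicates of a group were separate cultures, so p-values measure the spread between these samples, which may be technical.

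A549 and H1975 are both called lung adenocarcinoma, but they are known for different genetic lesions. A549 carries inactivating mutations of STK11, KEAP1 and SMARCA4, and it lacks the CDKN2A locus. H1975 carries EGFR mutations that activate the receptor and make it resistant to early EGFR inhibitors. KEAP1 normally targets NRF2, the transcription factor of the antioxidant response, for degradation, and SMARCA4 is the motor subunit of the SWI/SNF complexes that remodel chromatin.

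Total RNA of each sample was hybridized to its own Agilent single-color array, so that a spot is brighter the more labeled RNA its probe has bound. A level is given below as log2 relative to the 75th percentile of its own array, so that 0 is the level of a rather bright probe. Differences are H1975 minus A549 on the log2 scale, where 1 is a 2-fold difference. A difference was called when its adjusted p (limma, Benjamini-Hochberg over all probes tested) was 0.05 or less and its size 1 or more. A gene was read from its brightest probe. RNA of a whole culture was measured, so fewer cells with a transcript and less transcript per cell cannot be told apart.

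The 12 arrays separated by line. Correlations within a line were at least 0.982 and those between lines lay between 0.825 and 0.845, over the 23349 probes tested. The arrays of A549 had 62.7 to 64.66% of all probes well above background and those of H1975 66.28 to 69.34%, and no probe was saturated. Each array slide carried a single line, so slide and line cannot be told apart. The arrays were also grouped into runs by the date in their raw data names, and runs 1 and 3 held both lines. Which laboratory step that date marks is not stated. The third A549 sample of 24 h had the lowest mean correlation with its own line (0.9834), and results are given without it where it changed a call.

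The lines differed in a large part of the transcriptome. Of 16231 genes tested, 5536 (34.1%) were called, 2914 (18.0%) higher in H1975 and 2622 (16.2%) higher in A549. The median difference over all genes was 0.04. In 8527 genes (52.5%) the 6 arrays of a line all lay above the 6 arrays of the other. A difference of 5 or more was measured for 355 genes in the direction of H1975 and for 411 in the direction of A549. A total of 646 genes were well above background on all 6 H1975 arrays and on no A549 array, and 397 genes showed the reverse. Counted by probe, 7757 of 23349 (33.2%) were called, 4165 (17.8%) higher in H1975 and 3592 (15.4%) higher in A549, and with another background correction (normexp) the count for H1975 was 2664.

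**Figure D1:**
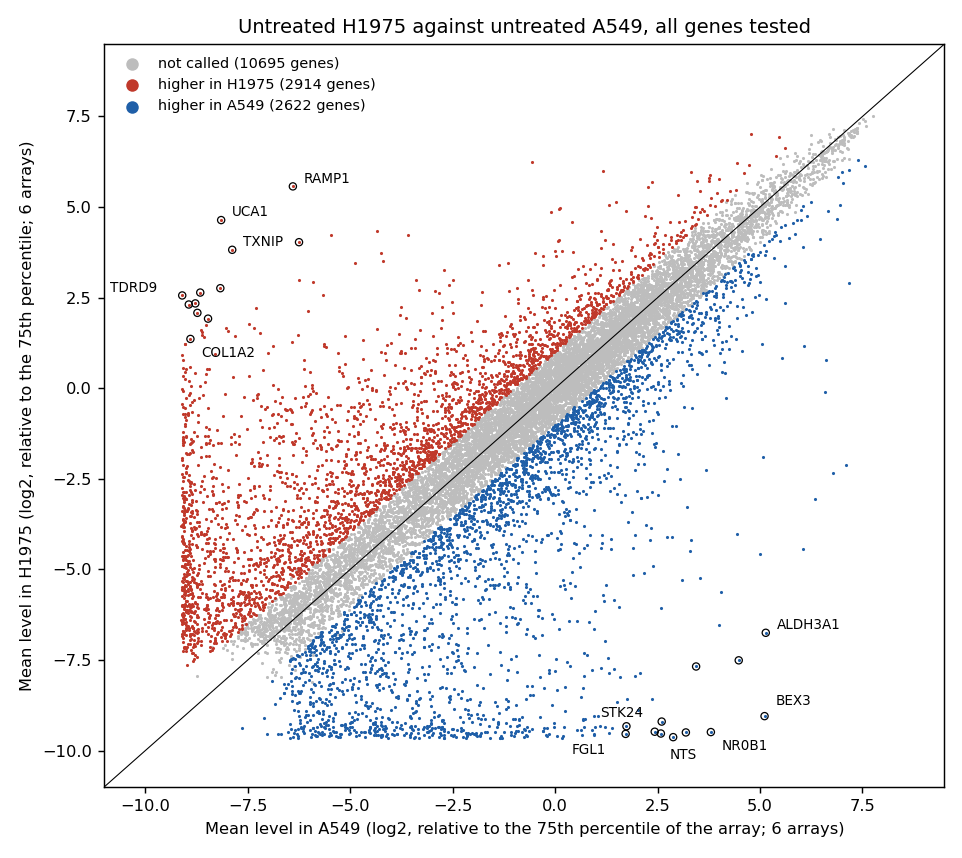
Mean level of each of the 16231 genes tested in A549 (horizontal axis) and H1975 (vertical axis), both log2 relative to the 75th percentile of the array, over 6 arrays each. Red and blue points are the 2914 genes called higher in H1975 and the 2622 called higher in A549, grey points were not called, and the open circles mark the 12 genes named for the largest differences in each direction, some labeled by name. The points form a broad band along the diagonal, with edges near -9 in A549 and -9.5 in H1975 where probes were not above background.

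The 12 genes named in each direction were taken by the fitted difference, and their order depends on the background level where a line did not measure them. Toward H1975 they included the long noncoding RNA UCA1. Its level lay between 4.10 and 5.73 (median 4.32) in H1975 and between -9.14 and -6.97 (median -8.32) in A549, where it was not well above background on any array. H1975 was at least 2770-fold higher (adjusted p = 9.09e-11). RAMP1, an accessory protein that lets a G-protein-coupled receptor respond to the neuropeptide CGRP, lay between 5.25 and 5.74 (median 5.65) in H1975 and between -6.88 and -5.62 (median -6.40) in A549, a difference of 11.97 ± 0.18 (SE, n = 6 per line, adjusted p = 8.95e-14). For both genes the arrays of the lines were far apart, and UCA1 varied more within a line than RAMP1. TXNIP, the inhibitor of thioredoxin that responds to glucose, lay between 3.35 and 4.17 in H1975 (median 3.86) and between -9.18 and -5.38 in A549 (median -8.28), a difference of 11.70 ± 0.52 (SE, adjusted p = 1.62e-09). Its spread in A549 was wide, and a single A549 array was above background. TDRD9, a germline RNA helicase, SOD3, the secreted superoxide dismutase, and CST6, a cysteine protease inhibitor, were at least 656-fold, 471-fold and 421-fold higher in H1975, since no A549 array measured them. Other genes of this group were COL1A2 and BST2, described below, the metallothionein MT1M, the linker histone H1-1 and the noncoding RNA LOC101927418. MT1M belongs to a family of near-identical genes, so its probe may bind the RNA of relatives.

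In the direction of A549, BEX3, an X-linked adaptor of neurotrophin receptor signaling, lay between 4.87 and 5.45 (median 5.10) in A549 and between -9.63 and -6.63 (median -9.52) in H1975, a difference of -14.16 ± 0.42 (SE, adjusted p = 3.39e-11). It was above background on 1 H1975 array. NPTX1, a secreted neuronal pentraxin, was at least 1480-fold higher in A549, and NTS, the neuropeptide neurotensin, at least 1190-fold. The NTS level in A549 ranged from 1.24 to 5.48 (median 2.20), the widest spread among these 12 genes, and all H1975 arrays lay between -9.75 and -9.39. Homogentisate dioxygenase HGD, an enzyme of tyrosine breakdown, was at least 984-fold higher and PGAP4, a Golgi enzyme of GPI-anchor modification, at least 968-fold. FGL1, a secreted protein of hepatocytes and a ligand of LAG3, was at least 534-fold higher, and the noncoding RNA LINC00473 at least 541-fold. NTRK3, the receptor of neurotrophin 3, lay between 2.15 and 4.34 (median 3.86) in A549 and between -9.48 and -6.77 (median -7.52) in H1975. Its difference was -11.12 ± 0.52 (SE, adjusted p = 2.29e-09), and it was above background on only 2 H1975 arrays. Its other 3 probes were called in the same direction, with differences from -8.71 to -4.63. STK24, a kinase of the Hippo-related MST family, was at least 872-fold higher in A549 (adjusted p = 5.58e-16) and its second probe at least 26.6-fold higher. NR0B1, ALDH1A1 and ALDH3A1 complete this group and are described with the NRF2 targets and the detoxifying enzymes.

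Of 18 genes often mutated or lost in lung adenocarcinoma, 17 were tested. Of these, 7 (41.2%) were higher in H1975 and 1 (5.88%) in A549, beside 18.0% and 16.2% over all genes. SMARCA4 showed the largest difference. Its level lay between 4.64 and 5.01 (median 4.86) in H1975 and between -0.46 and 0.06 (median -0.04) in A549, 31.1-fold higher in H1975 (difference 4.96 ± 0.11 SE, adjusted p = 2.64e-12). The 6 arrays of each line fell within less than 1 log2 unit, and A549 stayed well above background on all 6. BRAF differed by 1.36, PIK3CA by 1.35 and the transcription factor MYC by 1.25. The retinoblastoma gene RB1 was higher in A549, with levels between 0.69 and 0.98 (median 0.81) there and between -0.93 and 0.35 (median -0.59) in H1975, a difference of -1.25 ± 0.20 (SE, adjusted p = 0.000133). Within run 1 its difference was -0.52.

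EGFR, KEAP1 and STK11, mutated in one of the lines, differed little in transcript level. EGFR lay between -0.01 and 0.93 (median 0.43) in H1975 and between -0.80 and -0.44 (median -0.52) in A549, a difference of 1.05 ± 0.12 (SE, adjusted p = 1e-05). The arrays did not overlap, but the difference sits at the 2-fold limit. It was 0.66 within run 1 and 0.98 without the third H1975 sample of 6 h, both under the limit. The other EGFR probes tested lie nearer the start of the gene and differed by 0.05 and 0.21. They are assigned to other EGFR transcripts and were dimmer, with A549 means of -4.58 and -2.21, so they may not report the same RNA. KEAP1 lay between 1.65 and 2.19 (median 2.15) in H1975 and between 0.41 and 1.14 (median 1.05) in A549, a difference of 1.06 ± 0.14 (SE, adjusted p = 2.03e-05). Without the third A549 sample of 24 h, its lowest value, the difference was 0.96 and was not called. STK11, the kinase that activates AMPK, differed by 0.89 (adjusted p = 6.44e-07), under the 2-fold limit, and ATM by 0.70. NF1 at -0.72, SMARCA2, the alternative motor of SWI/SNF, at -0.55, ERBB2 at -0.37 and MET at -0.31 were not called either. NFE2L2, which encodes NRF2, had a single probe that was not well above background on any array and was not tested.

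Several neighboring probes on the short arm of chromosome 9 were at background in A549. CDKN2A and CDKN2B encode inhibitors of the kinases that drive cells into S phase, and MTAP, their neighbor, salvages adenine and methionine. The array held 35 probes between 20 and 25 Mb (hg19), of which 19 were tested, 7 higher in H1975 and 7 higher in A549. Over all probes tested 17.8% were higher in H1975 and 15.4% in A549. The MTAP probe at chr9:21837969-21854648 had a mean of -0.72 ± 0.32 (SD, n = 6) in H1975 and was not well above background on any A549 array, so that H1975 was at least 67.4-fold higher (adjusted p = 1.86e-13). The next MTAP probe, at chr9:21865830-21865889, was at least 80.1-fold higher, a CDKN2A probe at chr9:21970901-21970960 at least 147-fold and the CDKN2B probe at chr9:22008979-22009038 at least 4.47-fold. Before this stretch the order was turned. An MTAP probe that spans an intron, at chr9:21802766-21815476, had a mean of -0.69 ± 0.16 in A549 and -2.83 ± 0.28 in H1975 (SD, n = 6), a difference of -2.14 (adjusted p = 3.34e-08). Farther out on the same side, FOCAD, KLHL9, MIR31HG, IFNE and both MLLT3 probes were also higher in A549, by 1.15 to 2.37 log2 units, and HACD4 was higher in H1975 by 2.36. DMRTA1, on the far side, differed by -0.06 (adjusted p = 0.656), while the probe of the transcript ENST00000453177, farther out at chr9:22748048-22748109, was higher in H1975 by 1.86 (adjusted p = 9.16e-09).

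The brightest CDKN2A probe was not silent in A549. This probe, at chr9:21968039-21968098, lay between -2.33 and -0.88 (median -1.90) in A549 and was well above background on all 6 arrays, against 2.37 to 3.02 (median 2.57) in H1975. Its difference was 4.43 ± 0.21 (SE, adjusted p = 2.26e-09). The 2 CDKN2A probes thus gave different pictures of A549, and whether the brighter one binds other RNA was not tested. No genome annotation of the array's build was used here, so exons and untranslated regions of the probes are not given.

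**Figure D2:**
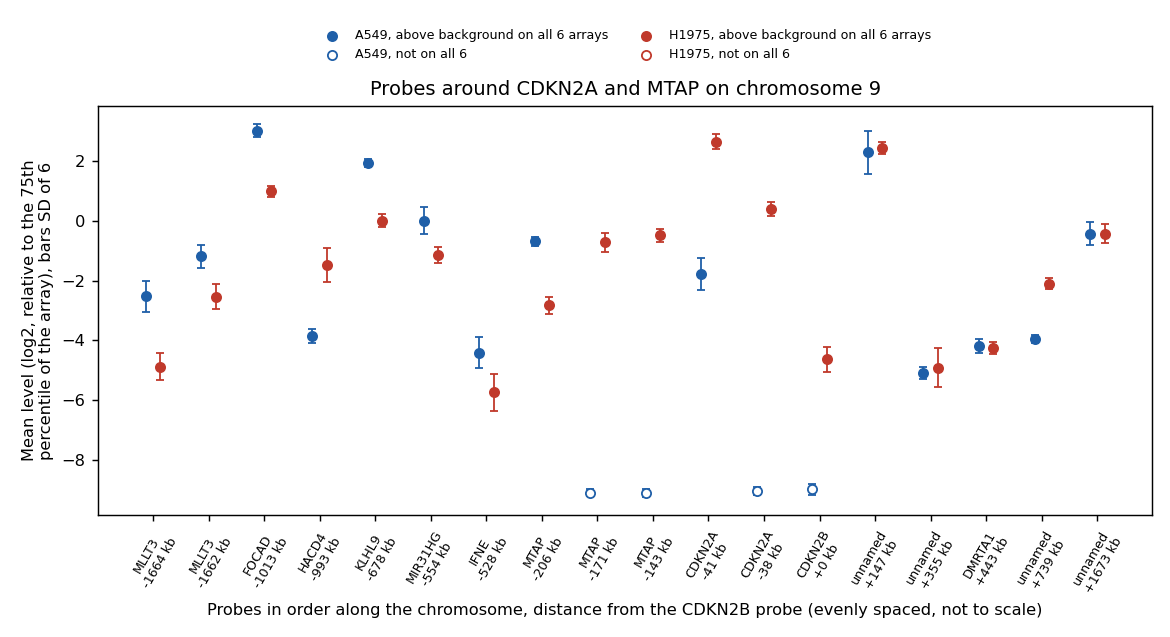
Mean level (log2 relative to the 75th percentile of the array, bars SD of 6 arrays) of the probes between 20 and 25 Mb of chromosome 9 that exceeded background throughout the 6 arrays of either line, in their order along the chromosome, each labeled with its distance from the CDKN2B probe. Blue is A549 and red is H1975, and filled circles are above background on all 6 arrays of a line and open circles are not. Among the probes from MTAP at -171 kb to CDKN2B, 4 are open in A549 and the CDKN2A probe at -41 kb is filled, and all others are filled in both lines.

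Targets of NRF2 were higher in A549 almost throughout. NRF2 binds antioxidant response elements in front of genes for glutathione synthesis, NADPH production, quinone and aldehyde reduction and drug export. Of 33 target genes tested, 28 (84.8%) were higher in A549 and none in H1975, with a median difference of -2.40, beside 16.2% and 0.04 over all genes. On the 12 Pirfenidone arrays the count was also 28. The core of the element, TGACNNNGC, was searched on both strands of the RefSeq promoters (300 bases around the start, mostly before it, GRCh38.p14, the first entry of each symbol). It was found in 13.6% of 27305 promoters and in 6 of the 22 promoters matched to called NRF2 targets (27.3%). A match of these letters is a description and not a shown binding site. The following stretches are shown because they hold the core, in capitals, in front of 4 of the called targets, those with the largest differences among promoters that hold it before the start. In GPX2 and PGD it reads on the opposite strand.
GPX2 (chr14:64942835-64942891, minus strand): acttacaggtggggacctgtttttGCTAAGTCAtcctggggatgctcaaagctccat
PGD (chr1:10398839-10398895, plus strand): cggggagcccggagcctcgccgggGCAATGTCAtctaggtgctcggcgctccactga
TXNRD1 (chr12:104215656-104215712, plus strand): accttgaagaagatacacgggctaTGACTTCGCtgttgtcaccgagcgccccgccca
ME1 (chr6:83431156-83431212, minus strand): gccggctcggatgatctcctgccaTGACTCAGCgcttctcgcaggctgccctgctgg

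NR0B1, a nuclear receptor that lacks a DNA-binding domain, was measured in A549 alone. Its level lay between 3.56 and 4.16 (median 3.72) in A549 and between -9.58 and -9.36 (median -9.52) in H1975, at least 2250-fold higher in A549 (adjusted p = 5.8e-16). ALDH3A1, an aldehyde dehydrogenase, lay between 4.87 and 5.36 (median 5.20) in A549 and between -7.14 and -6.03 (median -7.00) in H1975. H1975 was dim but above background on all 6 arrays, and the difference was -11.89 ± 0.21 (SE, adjusted p = 2.49e-13). GPX2, the glutathione peroxidase of epithelia, lay between 3.47 and 4.30 (median 4.07) in A549 and between -6.69 and -6.25 (median -6.61) in H1975, a difference of -10.53 ± 0.15 (SE, adjusted p = 5.68e-14). AKR1C1, an aldo-keto reductase, lay between 6.17 and 6.54 (median 6.35) in A549 and between -4.10 and -2.39 (median -2.88) in H1975, a difference of -9.39 ± 0.23 (SE, adjusted p = 5.98e-12). In all of these genes the A549 arrays were bright and tightly grouped. AKR1C1 and AKR1C3 are close relatives whose probes may bind each other's RNA.

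The smaller differences of the list covered each branch of the response. In glutathione synthesis, the catalytic subunit GCLC differed by -2.61 and the cystine transporter SLC7A11 by -3.66. Among the enzymes that make NADPH, PGD differed by -3.82 and malic enzyme ME1 by -2.12. The quinone reductase NQO1, the textbook target, differed by -2.61, thioredoxin reductase TXNRD1 by -2.27 and the exporter ABCC2 by -6.83. The 5 targets not called were FTH1 (-0.37), TXN (-0.45), HMOX1 (-0.60), GCLM (-0.87) and CBR3 (-0.90), all with the same sign. HMOX1, the heme oxygenase, was thus not called while most NRF2 targets were.

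A list of detoxifying enzymes, which shares ALDH3A1 with the NRF2 targets, held calls in both directions. Of 29 aldehyde dehydrogenases, cytochromes and transferases tested, 14 (48.3%) were higher in A549 and 4 (13.8%) in H1975, with a median of -0.90. The shares over all genes were 16.2% and 18.0%. Retinal dehydrogenase ALDH1A1 lay between 4.08 and 4.72 (median 4.50) in A549 and between -8.37 and -6.19 (median -7.83) in H1975, a difference of -11.98 ± 0.37 (SE, adjusted p = 4.96e-11). It was above background on only 2 H1975 arrays, so this size depends on the background level, and its other probe differed by -16.06. CYP4F11, a fatty acid hydroxylase, was at least 67.5-fold higher in A549, and CYP26A1, which breaks down retinoic acid, differed by -7.79. The members higher in H1975 were ALDH3B2, at least 4.15-fold, the dioxin receptor AHR (1.81), its repressor AHRR (1.70) and its target CYP1B1 (1.97). Within run 1 the last of these differed by only 0.69, AHR by 0.78 and AHRR by 0.52, none of them called there.

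**Figure D3:**
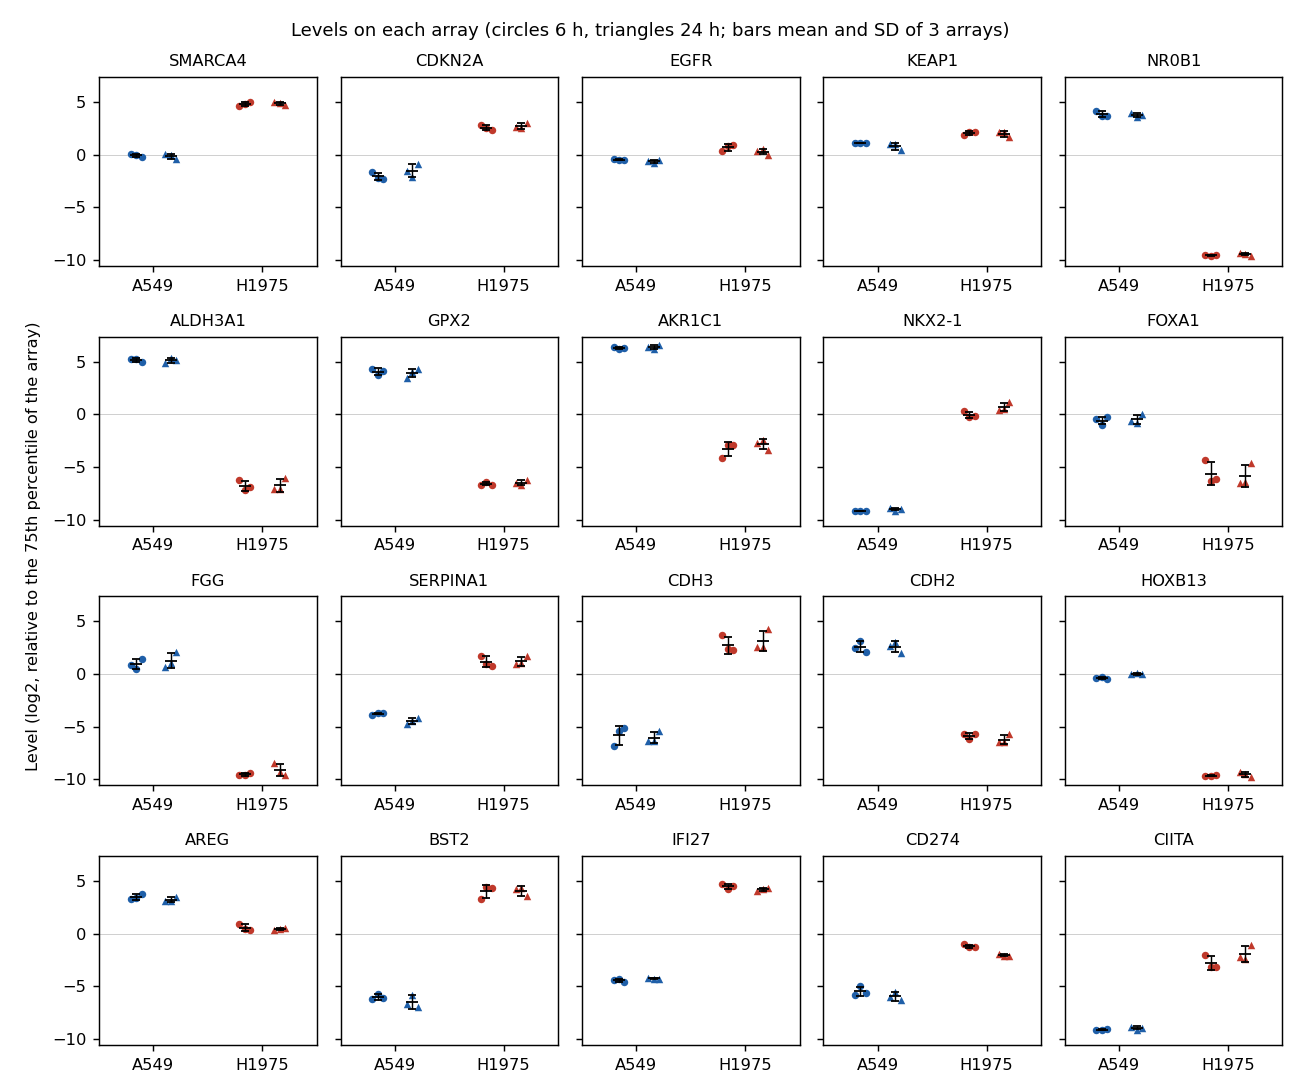
Level on each array (log2 relative to the 75th percentile of the array, vertical axis) of 20 named genes in A549 (blue) and H1975 (red), with circles for 6 h, triangles for 24 h and bars for the mean and SD of 3 arrays. In each panel the 6 arrays of a line lie apart from the 6 of the other, and the times overlap or lie close together compared with the distance between the lines.

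The factors that set lung identity were split between the lines. NKX2-1, the homeodomain factor of lung and thyroid, lay between -0.22 and 1.18 (median 0.36) in H1975 and was not above background on any A549 array, so that H1975 was at least 140-fold higher (adjusted p = 2.29e-13). Its neighbor on chromosome 14, SFTA3, was at least 76.2-fold higher in H1975 (adjusted p = 8.26e-13). The forkhead factor FOXA1 went the other way, between -0.97 and -0.01 (median -0.55) in A549 and between -6.52 and -4.37 (median -6.28) in H1975, a difference of -5.21 ± 0.40 (SE, adjusted p = 2.22e-07). Its relative FOXA2 differed by -2.82 and CEBPA, a factor of alveolar and hepatic maturation, by -2.98. Of 21 genes of the lung list tested, 7 (33.3%) were higher in H1975 and 4 (19%) in A549, with a median of 0.33. The shares over all genes were 18.0% and 16.2%. FOXJ1, the factor of ciliated cells, differed by 2.66, GATA6 by 1.53, and ROS1 was at least 1.14-fold higher in H1975. SFTPD differed by -1.18, but by -0.88 and not called without the third A549 sample of 24 h.

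Surfactant genes, which mark alveolar type II cells, were low in both lines. SFTPC differed by 0.12, with means of -4.33 in A549 and -4.21 in H1975, and NAPSA by 0.53, with means of -3.80 and -3.27. SFTPB was above background on 1 A549 array and 4 H1975 arrays and SFTPA1 on none, and neither was tested. Of the markers that define a lung adenocarcinoma line, NKX2-1 was thus not measured in A549, while the epithelial markers KRT8, KRT18, KRT19, CDH1 and EPCAM were above background on all 12 arrays.

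Many hepatocyte and gut secretory genes were higher in A549, but not all hepatocyte markers. Fibrinogen, for one, is made by hepatocytes, as are albumin and the apolipoproteins. Albumin (ALB) was above background on 1 A549 array and APOB and APOC3 on none, and these were not tested, while APOA1 differed by -0.04 and was not called. Of 29 such genes tested, 24 (82.8%) were higher in A549 and 1 was higher in H1975, beside 16.2% and 18.0% over all genes. The median was -4.59, or -2.94 when the 14 genes measured in a single line were set to their lower bounds. The fibrinogen chain FGG lay between 0.49 and 2.05 (median 0.95) in A549 and between -9.63 and -8.42 (median -9.48) in H1975, where it was not above background, at least 347-fold higher in A549 (adjusted p = 7.45e-12). The other chains followed, with FGB at least 101-fold and FGA at least 58.5-fold higher. AGR2, a disulfide isomerase of mucus-secreting cells, lay between 3.70 and 6.30 (median 4.08) in A549 and between -5.08 and -3.40 (median -3.90) in H1975, a difference of -8.44 ± 0.42 (SE, adjusted p = 4.25e-09). The third A549 sample of 24 h held its highest level. The exception was SERPINA1, the alpha-1 antitrypsin gene, with levels between 0.79 and 1.75 (median 1.0) in H1975 and between -4.74 and -3.71 (median -3.99) in A549, a difference of 5.29 ± 0.21 (SE, adjusted p = 5.59e-10).

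HOX genes, which mark position along the body axis, were also higher in A549. Of 29 tested, 21 (72.4%) were higher in A549 and 1 was higher in H1975, beside 16.2% and 18.0% over all genes. The median was -3.87, or -2.72 with the 10 genes measured in a single line at their bounds. HOXB13, the most posterior gene of the B cluster, lay between -0.50 and 0.06 (median -0.15) in A549 and between -9.74 and -9.34 (median -9.64) in H1975, at least 142-fold higher in A549 (adjusted p = 1.45e-15). HOXB8 was at least 45.1-fold and HOXB2 at least 39.7-fold higher, and HOXB6 differed by -8.66. HOXD3 was the gene higher in H1975, at least 5.28-fold (adjusted p = 9.51e-07). HOXA9 and HOXA10 each differed by -0.14 and were above background on all 12 arrays.

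**Figure D4:**
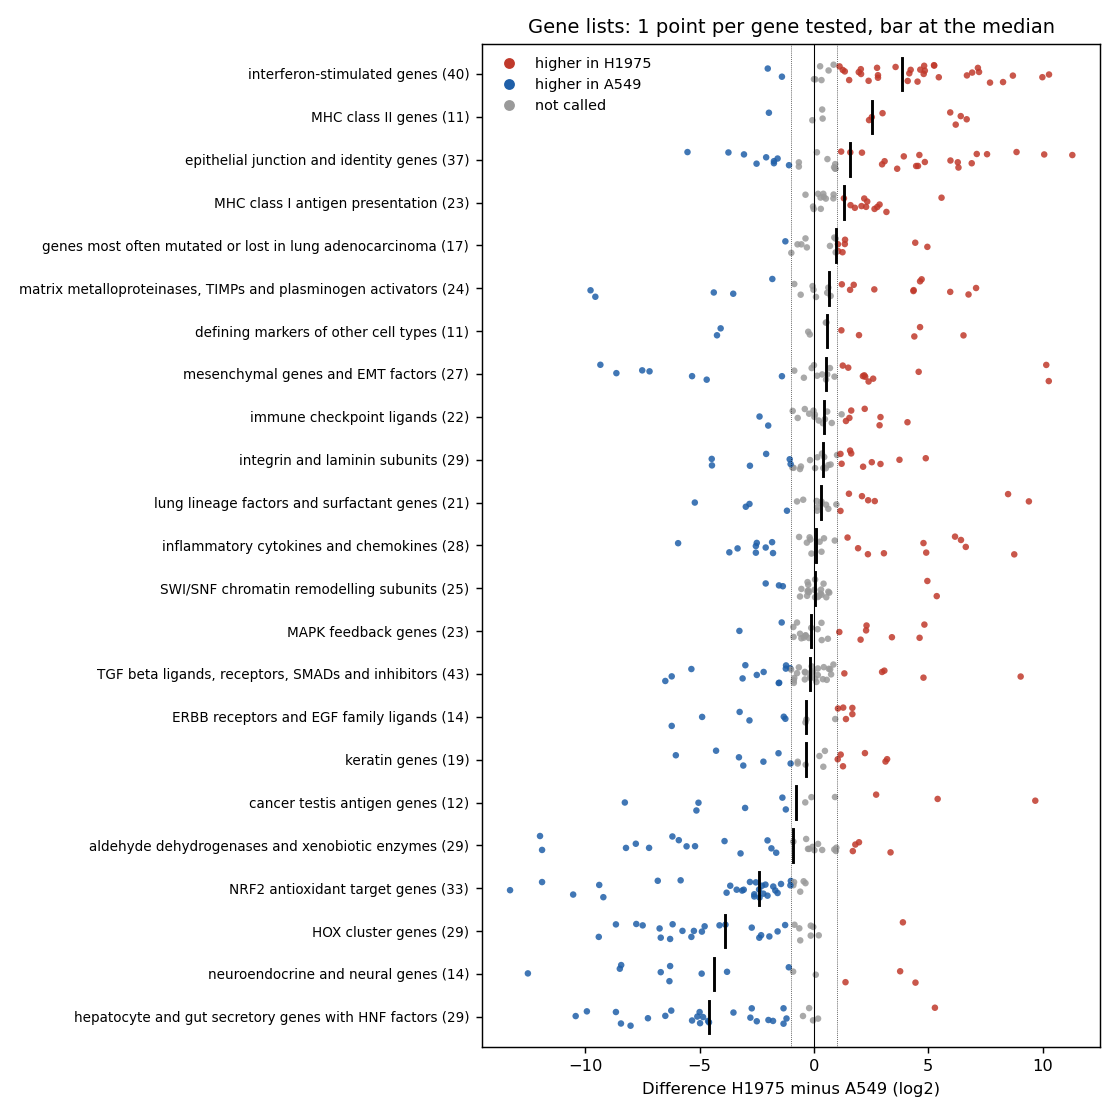
Difference H1975 minus A549 (log2, horizontal axis) of each gene tested in 23 gene lists, with the number of genes tested in parentheses, the black bar at the list's median and dotted lines at a difference of 1 in either direction. Differences of genes not above background in a line depend on the background level there. Interferon-stimulated genes lie almost all to the right (median 3.84) and hepatocyte and gut genes almost all to the left (median -4.59), while TGF beta and SWI/SNF genes are centered near 0.

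Most of the epithelial genes called were higher in H1975. Of 37 epithelial genes tested, 20 (54.1%) were higher in H1975 and 9 (24.3%) in A549, with a median of 1.59. The shares over all genes were 18.0% and 16.2%. MAL2, a protein of apical transport, was at least 306-fold and OVOL1, an epithelial zinc finger factor, at least 39.9-fold higher. P-cadherin CDH3 lay between 2.23 and 4.25 (median 2.58) in H1975 and between -6.81 and -5.11 (median -5.88) in A549, a difference of 8.86 ± 0.41 (SE, adjusted p = 2.16e-09). E-cadherin CDH1 was not nearly as different. It lay between 0.73 and 3.05 (median 1.0) in H1975 and between -0.70 and 1.37 (median -0.32) in A549, so that the arrays overlapped, with a difference of 1.59 ± 0.45 (SE, adjusted p = 0.00738). Claudin 1 (CLDN1) led the genes higher in A549, with a difference of -5.53 ± 0.22 (SE, adjusted p = 6.62e-10), followed by the factors GRHL3 (-3.74), ELF3 (-3.06) and EHF (-2.51).

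Mesenchymal genes did not follow a single direction. Of 27 tested, 10 (37%) were higher in H1975 and 7 (25.9%) in A549, beside 18.0% and 16.2% over all genes. The median was 0.53. COL1A2, a chain of type I collagen, lay between 0.16 and 2.04 (median 1.75) in H1975 and was not above background in A549, at least 286-fold higher in H1975 (adjusted p = 3.65e-11). LOX, which cross-links collagen, was at least 324-fold higher, and the factor SNAI2 differed by 4.58. N-cadherin CDH2 went the other way, between 2.01 and 3.14 (median 2.59) in A549 and between -6.49 and -5.72 (median -5.96) in H1975, a difference of -8.64 ± 0.23 (SE, adjusted p = 1.37e-11). TWIST2 was at least 138-fold higher in A549, COL5A2 differed by -7.51 and the surface marker THY1 by -7.19. The classical cadherins were therefore opposed, with P- and E-cadherin higher in H1975 and N-cadherin higher in A549. Vimentin (VIM) differed by 0.14, with means of 6.33 in A549 and 6.47 in H1975, and ZEB1 by -0.44.

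Keratins were mixed as well, 6 (31.6%) higher in H1975 and 7 (36.8%) in A549 of 19 tested, beside 18.0% and 16.2% over all genes. KRT14 differed by 3.20, KRT17 by 3.13 and KRT19 by 2.23 toward H1975. Levels of KRT14 and KRT17 ran in parallel across the arrays, and whether their probes bind each other's RNA was not tested. KRT4 differed by -6.04, KRT81 by -4.28 and KRT83 by -3.28 toward A549, but KRT81 and KRT83 are near-identical hair keratins whose signals cannot be separated. KRT18, the partner of KRT8 in simple epithelia, differed by -0.71 and KRT8 by -1.55.

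Adhesion and protease genes showed exchanges within families. Among 29 integrin and laminin genes tested, 9 (31%) were higher in H1975 and 6 (20.7%) in A549, beside 18.0% and 16.2% over all genes. Chains LAMB3 and LAMA3 of the epithelial laminin were higher in H1975, at 3.74 and 1.63. Other chains were higher in A549, with LAMC3 at -4.47 and LAMB1 at -4.46, whose other probe differed by 0.18 and was not called. Integrin beta 3 (ITGB3) differed by 4.89 and ITGA5 by 2.53 toward H1975, and ITGB4 by -2.09 toward A549. Of 24 protease and inhibitor genes tested, 11 (45.8%) were higher in H1975 and 5 (20.8%) in A549. The membrane-bound collagenase MMP14 lay between -0.88 and 0.70 (median -0.04) in H1975 and between -7.53 and -6.43 (median -6.61) in A549, a difference of 6.76 ± 0.26 (SE, adjusted p = 4.84e-10). The serpins SERPINB5 and SERPINB2 were higher in H1975, by 7.09 and at least 14.8-fold, and MMP13 at least 5.98-fold. In contrast, the protease inhibitor SERPINE2 was at least 183-fold, the matrilysin MMP7 at least 482-fold and TIMP3 at least 5.21-fold higher in A549.

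ERBB receptors and their ligands differed in both directions. Of 14 genes tested, 5 (35.7%) were higher in H1975 and 6 (42.9%) in A549, beside 18.0% and 16.2% over all genes. Amphiregulin AREG lay between 3.07 and 3.79 (median 3.32) in A549 and between 0.35 and 0.95 (median 0.46) in H1975, a difference of -2.82 ± 0.14 (SE, adjusted p = 3.08e-09). Epiregulin EREG, its neighbor on chromosome 4, differed by -3.25, and the neuregulins NRG2 and NRG4 were at least 22.5-fold and 13.6-fold higher in A549. On the side of H1975, TGFA and HBEGF each differed by 1.68. The receptor ERBB3 differed by 1.28 (adjusted p = 0.0183) with overlapping arrays, and the inhibitor LRIG1 by 1.40. LRIG1 was not stable, since its difference was -0.12 within run 1 and 2.14 within run 3.

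Feedback genes and other target genes of MAPK signaling, which rise when ERK is active, were taken as 1 list. Of its 23 genes tested 9 were called, 7 higher in H1975 and 2 in A549, a share near the 34.1% of all genes. IL1RL1 was at least 5.92-fold higher in H1975, the phosphatase DUSP2 differed by 4.62, the early factor EGR1 by 3.41 and FOSL1 by 2.30. The ERK phosphatase DUSP6 differed by -0.22, SPRY2 by 0.16 and SPRY4 by -0.37, and none of these was called. DUSP1 differed by -3.26 and ETV4 by -1.41 toward A549, and within run 1 the number higher in A549 was 7.

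TGF beta signaling is the pathway the study addressed with Pirfenidone. Of 43 genes tested, 12 (27.9%) were higher in A549, 5 (11.6%) were higher in H1975 and 26 were not called, with a median of -0.16. Over all genes 16.2% were higher in A549 and 18.0% in H1975. Among ligands, TGFB1 lay between -0.28 and 0.43 (median 0.19) in A549 and between -1.61 and -1.29 (median -1.37) in H1975, a difference of -1.52 ± 0.11 (SE, adjusted p = 8.82e-08). TGFB3 was higher in H1975 by 3.08, BMP2 by 4.79, and the activin subunit INHBB was higher in A549 by 6.50. The co-receptor endoglin (ENG) lay between 0.50 and 0.62 (median 0.53) in H1975 and was not above background in A549, at least 162-fold higher in H1975 (adjusted p = 2.46e-13). The receptors TGFBR1 at -0.38 and TGFBR2 at -0.88 were not called. Of the intracellular mediators, SMAD3 differed by -1.23 ± 0.11 (SE, adjusted p = 1.04e-06) and SMAD2 by -0.86 (adjusted p = 6.15e-05), under the 2-fold limit, while SMAD4 differed by 0.05. Among inhibitors, the BMP antagonist GREM1 was at least 19.8-fold higher in A549, the activin antagonist FST differed by -5.36, SMAD6 by -3.0 and the pseudoreceptor BAMBI by -1.54. The BMP antagonist NOG was higher in H1975 by 2.98. Among matrix genes of the pathway, COL1A1 differed by 2.20 ± 0.37 (SE, adjusted p = 0.000216) and the collagen chaperone SERPINH1 by 1.57 ± 0.21 (SE, adjusted p = 2.74e-05).

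The mitotic genes named by the study were not called between the lines. BIRC5, which encodes Survivin, lay between 3.66 and 5.44 (median 5.12) in A549 and between 4.50 and 5.41 (median 4.63) in H1975, a difference of -0.11 (adjusted p = 0.731), and the arrays of the lines overlapped. The proliferation marker MKI67 differed by 0.51 (adjusted p = 0.0833), the mitotic kinases AURKA by 0.18 and AURKB by 0.51, and the checkpoint genes BUB1 by 0.62, CDC20 by 0.68, MAD2L1 by 0.18 and SPC25 by 0.50. In every one of these 8 genes the lowest A549 value was that of the third sample of 24 h. Without it BIRC5 differed by -0.35, MKI67 by 0.27, AURKA by -0.07, AURKB by 0.28, BUB1 by 0.33, CDC20 by 0.36, MAD2L1 by 0.02 and SPC25 by 0.21, none of them called. Within run 1, which holds this sample, SPC25 differed by 1.21, and within run 3 by 0.10.

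The interferon-stimulated genes formed the list with the highest median toward H1975. These genes are switched on through a complex that holds STAT2 and IRF9 and binds the interferon-stimulated response element, and many of their products block viruses. Of 40 tested, 32 (80.0%) were higher in H1975 and 2 in A549, beside 18.0% and 16.2% over all genes. Their median was 3.84. On the Pirfenidone arrays the counts were also 32 and 2. The core of the element, GAAA repeated after a gap of 2 bases, was found on either strand in 3.6% of the 27305 promoters and in 17 of the 25 promoters matched to genes called higher in H1975 (68.0%). It overlapped the antioxidant core in 0 promoters, but the fixed letters of these cores cannot overlap, so this count carries no information. The stretches below are shown because they hold the core, in capitals, before the start of the 4 genes with the largest differences among those that have it there. Capitals mark the first core of each stretch, and BST2 and IFI27 hold another that is not fully marked. In IFI44 and IFI27 the marked core reads on the opposite strand.
BST2 (chr19:17405727-17405784, minus strand): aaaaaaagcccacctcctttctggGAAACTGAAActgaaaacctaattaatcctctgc
IFI44 (chr1:78649747-78649788, plus strand): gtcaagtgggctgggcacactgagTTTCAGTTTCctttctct
IFI27 (chr14:94110604-94110661, plus strand): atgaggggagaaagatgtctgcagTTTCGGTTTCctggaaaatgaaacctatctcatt
IFITM1 (chr11:313976-314033, plus strand): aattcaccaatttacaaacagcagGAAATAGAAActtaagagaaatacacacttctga

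BST2, known as tetherin, holds budding virus particles on the cell surface. Its level lay between 3.29 and 4.40 (median 4.30) in H1975 and between -6.99 and -5.73 (median -6.18) in A549, a difference of 10.28 ± 0.26 (SE, adjusted p = 9.35e-12). IFI44 was at least 296-fold higher in H1975 and XAF1, a partner of the apoptosis inhibitor XIAP, at least 69.3-fold. IFI27 lay between 4.07 and 4.69 (median 4.31) in H1975 and between -4.57 and -4.17 (median -4.30) in A549, a difference of 8.70 ± 0.11 (SE, adjusted p = 1.78e-14). BST2 and IFI27 were dim in A549 and bright on all 6 arrays of H1975. IFITM1, a membrane protein that blocks viral entry and has close relatives on the array, differed by 7.70. The ubiquitin-like ISG15 differed by 4.85 and the GTPase MX1 by 4.23. OAS1 was higher in A549 (-2.02, adjusted p = 8.53e-05), while STAT2 at 0.06 and OAS3 at 0.00 were not called. CXCL10 and CXCL11 were not above background on any array.

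Of the antigen presentation genes called, nearly all were higher in H1975. MHC class I shows peptides of the cell's own proteins to cytotoxic T cells, and class II presents taken-up proteins in professional antigen-presenting cells. Over all genes 18.0% were higher in H1975 and 16.2% in A549. Of 23 class I genes tested, 12 (52.2%) were higher in H1975 and none in A549, with a median of 1.31. The peptide-trimming enzyme ERAP2 lay between 1.46 and 2.29 (median 2.0) in H1975 and between -3.84 and -3.46 (median -3.62) in A549, a difference of 5.58 ± 0.14 (SE, adjusted p = 6.42e-12). HLA-F differed by 3.17, the class I activator NLRC5 by 2.87 and the immunoproteasome subunit PSMB8 by 2.77. The HLA probes may bind RNA of related HLA genes, and HLA genes vary in sequence between people, so the HLA differences are uncertain. Of 11 class II genes tested, 7 (63.6%) were higher in H1975 and 1 in A549. The class II master regulator CIITA was at least 22-fold higher in H1975 (adjusted p = 6.38e-10), HLA-DPB1 at least 45-fold, the invariant chain CD74 at least 15.3-fold and HLA-DRA at least 13.4-fold. Their levels in H1975 were modest, with a median of -2.35 for CIITA, and no A549 array measured them. HLA-DMB was the member higher in A549 (-1.97).

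Among immune checkpoint ligands, 7 of 22 tested were higher in H1975 and 2 in A549, a share near the 34.1% of all genes, and with normexp 4 were higher in H1975. CD274, which encodes PD-L1, lay between -2.09 and -1.02 (median -1.63) in H1975 and between -6.31 and -4.95 (median -5.72) in A549, 17-fold higher in H1975 (difference 4.09 ± 0.17 SE, adjusted p = 7.64e-10). Its second probe differed by 4.75. PDCD1LG2, the gene of PD-L2, was at least 1.48-fold and IDO1 at least 2.61-fold higher in H1975, and the costimulatory ligand TNFSF9 differed by 2.22. CEACAM1 (-2.38) and NECTIN2 (-2.0) were higher in A549. CD276 at 0.58 was not called.

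Cytokines were divided between the lines. Of 28 tested, 10 (35.7%) were higher in H1975 and 9 (32.1%) in A549, beside 18.0% and 16.2% over all genes. The cytokine IL24 was at least 98.1-fold higher in H1975, the mucosal chemokine CCL28 at least 30.2-fold, and the adhesion molecule ICAM1 differed by 6.43 and IL6 by 6.17. CXCL5, a chemokine that attracts neutrophils, lay between 3.47 and 4.0 (median 3.62) in A549 and between -2.74 and -1.84 (median -2.19) in H1975, a difference of -5.94 ± 0.10 (SE, adjusted p = 1.78e-13). The NF-kappaB target BIRC3 differed by -3.70, CCL20 was at least 3.20-fold higher in A549 and CXCL16 differed by -2.54. CXCL8 differed by -0.16 and IL1B by 0.25, and neither was called.

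Cancer testis genes, silent in most adult tissues, differed in both directions. Of 28 on the array 12 were tested, 3 (25%) higher in H1975 and 6 (50%) in A549, beside 18.0% and 16.2% over all genes. CT45A1 lay between 3.80 and 4.80 (median 4.04) in H1975 and between -5.95 and -5.03 (median -5.45) in A549, a difference of 9.68 ± 0.19 (SE, adjusted p = 6.98e-13). The helicase DDX43 was at least 10.9-fold and CTAG2 at least 2.98-fold higher in H1975. MAGEA12 was at least 88.6-fold and MAGEA4 at least 7.49-fold higher in A549, MAGEA6 differed by -5.05 and PAGE1 by -3.01. These families hold near-identical copies, so a probe may report a relative.

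Neuroendocrine and neural genes were mostly higher in A549, 9 of 14 tested (64.3%), with 3 (21.4%) higher in H1975 and a median of -4.35. The shares over all genes were 16.2% and 18.0%. Chromogranin A (CHGA), a protein of secretory granules, was at least 76.9-fold higher in A549 (adjusted p = 2.24e-12). The ubiquitin hydrolase UCHL1 lay between 6.38 and 6.83 (median 6.55) in A549 and between -0.36 and 0.14 (median -0.12) in H1975, a difference of -6.70 ± 0.09 (SE, adjusted p = 2.96e-14). The neuropeptide galanin (GAL) differed by -8.49, and nestin (NES), an intermediate filament of progenitor cells, was higher in H1975 by 4.44. The secretogranin genes SCG5 and SCG2 also went toward H1975. SCG5 lay between -1.81 and 0.64 in H1975 and between -4.46 and -3.71 in A549. SCG2 lay between -4.93 and -2.69 in H1975 and between -5.39 and -4.79 in A549, so that its arrays overlapped. The neuroendocrine factors INSM1 and NEUROD1 were not above background on any of the 12 arrays and were not tested. CHGA, UCHL1 and GAL were therefore measured in A549 while these factors were not.

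Most SWI/SNF subunits besides SMARCA4 were not called. Of 25 tested, 2 (8%) were higher in H1975, SMARCA4 and the tissue-restricted subunit DPF3 (at least 10.7-fold). Another 3 (12%) were higher in A549, SMARCE1 (-2.11), ARID2 (-1.53) and BCL7A (-1.36). The shares over all genes were 18.0% and 16.2%. The other 20 were not called, with ARID1A at -0.30, SMARCB1 at 0.63 and PBRM1 at 0.29.

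Markers of other cell types were checked in these cultures. Of 14 markers, 11 were tested, 5 (45.5%) higher in H1975 and 2 (18.2%) in A549, beside 18.0% and 16.2% over all genes. PDGFRB was at least 5.70-fold and the endothelial marker PECAM1 at least 4.37-fold higher in H1975. LUM was at least 5.04-fold and HBB at least 4.36-fold higher in A549. The summed linear level of all 14 markers, in units of the array's 75th percentile, ranged from 1.57 to 2.01 in A549 and from 2.86 to 4.88 in H1975. CD3E and DCN were not above background on any of the 12 arrays, and CD14, PTPRC, DES and CDH5 were above background on all 12 and not called. The part of other cells in the results above was not tested.

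Time in culture changed the line difference of few probes. Tested at each time, 7556 probes (32.4%) were called at 6 h and 7666 (32.8%) at 24 h. The test of the difference between the times (an interaction term in limma) called 4 probes of 23349 (0.0171%), with 692 at an unadjusted p under 0.05. The small heat shock gene HSPB3 had means of -6.44 at 6 h and -8.85 at 24 h in A549 and was not above background in H1975 (interaction 2.57, adjusted p = 0.000327). Both IL24 probes were lower at 24 h in H1975, one of them with means of 0.70 at 6 h and -1.06 at 24 h (interaction -1.84, adjusted p = 0.00764) and the other with -1.89 and -3.60 (interaction -1.88, adjusted p = 0.00156). The uncharacterized LOC340581 was higher at 24 h in H1975 (interaction 1.99, adjusted p = 0.0405), and without the third A549 sample of 24 h its adjusted p was 0.128.

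The same line difference was measured on the 12 arrays of Pirfenidone-treated cells. These lay on slides that also held PBS arrays of the same line, so slide and line cannot be told apart there either. There 8001 of 23558 probes (34.0%) were called, and 6966 were called in both sets in the same direction, 89.8% of the calls in PBS and 87.1% of those in Pirfenidone. No probe was called in opposite directions. SMARCA4 differed by 5.01 on these arrays, BST2 by 10.38, CD274 by 4.01, ALDH3A1 by -11.65 and AREG by -2.38, beside 4.96, 10.28, 4.09, -11.89 and -2.82 in PBS.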

How the data were processed

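The 12 PBS arrays were fitted as described, 3 for each of 4 groups of line and time. The authors extracted total RNA, labeled it with Cy3 and scanned each array. The deposited scanner files hold intensity values from Agilent Feature Extraction 11.5.1.1, background-subtracted per the file headers, with probe positions on hg19. The deposited value table of the authors holds log2 values centered for each probe (column medians -0.163 to 0.156). It correlated with differences of the scanner values at 0.9998, and the constant removed from each array stays unknown.

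Levels here are log2 processed signals from which the array's own 75th percentile was subtracted. Of 43118 spots without controls, repeats were averaged to 34127 probes, 30287 with a symbol, 26534 of these through RefSeq accessions. A probe was tested if any group had it well above background throughout its 3 arrays. The fit held line and time, with 9 residual degrees of freedom (limma 3.58.1, R 4.3.3), and was tested on simulated data. Where no array of a line exceeded background, a lower bound of the fold is given, the mean of the bright line over the higher of the dim probe and the lowest signal above background on each array. Values called not tested failed the filter, and 32 missing probe values were left out.

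The members and gene lists were chosen with earlier results of these data known. Named were the 12 largest differences per direction, the driver genes, up to 4 called genes per direction of each list, members not called, and genes the study names. Called genes named beside this rule (ABCC2, AKR1C3, GCLC, ME1, NQO1, PGD, SLC7A11, TXNRD1, CDH1, EPCAM, KRT8, LAMA3, FGA, GATA6, IFITM1, ISG15, MX1 and SMAD6) were chosen after their values were seen. The study's methods adjust by resampling of arrays, which was not run. The Holm adjustment was the stricter alternative. Some genes and 1 gene list that the rule covers are not reported here. Scan day was added as an alternative after the data were seen. Another motif, searched for the hepatocyte and gut list, was found in 0 of its 22 promoters. It was found in 1 of all 27305 promoters, too rare for a comparison.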

Additional observations from a re-analysis of the deposited data

Results flagged for a closer look

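In 4 probes the line difference changed between 6 and 24 h by the interaction test (limma, Benjamini-Hochberg), by 2.57 in HSPB3, by -1.84 and -1.88 in the IL24 probes and by 1.99 in LOC340581. Without the third A549 sample of 24 h the adjusted p of LOC340581 was 0.128.

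In 28 of 297 groups of 6 arrays, for 198 named genes, the highest or lowest array lay apart by more than Dixon's limit for 6 arrays (the gap to its neighbor as a share of the range), where chance flags about 1 in 20 groups. The third A549 sample of 24 h held 19 of them. It was the lowest A549 array for 8 mitotic genes, at 3.66 for BIRC5, 1.27 for AURKA, -0.17 for AURKB, 0.21 for BUB1, 0.34 for CDC20, 0.58 for MAD2L1, -1.36 for MKI67 and -0.04 for SPC25. It was also the lowest for CYP26A1 (-3.36), GAL (-1.58), KEAP1 (0.41) and NES (-3.64). It was the highest for AGR2 (6.30), ELF3 (2.74), ERBB2 (1.67), ERBB3 (-0.98), HGD (4.11), LRIG1 (-0.79) and NRG2 (-1.99).

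The third A549 sample of 6 h was the lowest for BMP2 (-6.67), BTG2 (-0.57) and ITGB3 (-5.77). In H1975 the third sample of 24 h was the highest for ERBB2 (1.72) and the lowest for ICAM1 (-0.42) and MYC (3.59). The first sample of 6 h was the highest for AREG (0.95) and SPC25 (2.33), and the third of 6 h the lowest for TGFB1 (-1.61).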

How the results depend on the processing

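Of 7757 probes called, 7715 to 7803 were called when each array was left out in turn, 7762 without the third A549 sample of 24 h and 7707 with slide as a random block. Replicate numbers did not pair the samples (correlations of deviations -0.28 to 0.09), and with the replicate number as a block 7751 were called. Among named genes 1 result reversed, LRIG1 at -0.12 within run 1. Levels near background limit the precision of most of the largest differences.

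With normexp 2664 probes were higher in H1975, and 4 checkpoint and 5 integrin and laminin genes. Restricting the test to probes above background on all 12 arrays, which leaves fewer probes, gave 4799 calls, 2425 higher in H1975 and 2374 in A549. Genes higher in H1975 then numbered 2 for lung, 9 epithelial, 0 HOX, 4 MAPK, 2 class II, 20 interferon-stimulated, 1 cytokine, 4 checkpoint, 4 protease, 1 cancer testis, 1 SWI/SNF and 1 other-cell gene. Those higher in A549 numbered 6 hepatocyte and gut, 4 mesenchymal, 8 HOX, 1 protease, 8 detoxifying, 2 cancer testis, 2 neuroendocrine and 0 other-cell genes.

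With no limit on size 16550 probes were called, 8800 higher in H1975 and 7750 in A549. Genes higher in H1975 were then 11 drivers, 11 lung, 11 TGF beta, 19 class I, 8 detoxifying and 9 SWI/SNF genes, and those higher in A549 were 5 drivers, 8 MAPK, 21 TGF beta, 1 class I, 4 checkpoint and 7 SWI/SNF genes. With the Holm adjustment genes higher in H1975 were 4 lung, 13 epithelial, 4 mesenchymal, 3 keratin, 3 ERBB, 4 integrin and laminin and 0 detoxifying genes, and those higher in A549 were 0 drivers, 3 epithelial, 0 class II, 1 interferon-stimulated, 1 checkpoint and 3 integrin and laminin genes.

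Drivers higher in A549 numbered 1 to 2 when arrays were left out. They numbered 2 with quantile normalization, the authors' values, slide as a random block, scan day as a block, the mean of all probes, the 24 h arrays alone and within run 3, and 0 within run 1. ERBB genes higher in H1975 were 3 with run as a block, 3 within run 1, 2 within scan day 1 and 2 at 24 h alone. Within run 1, 7 MAPK genes and 1 interferon-stimulated gene were higher in A549 and 1 detoxifying gene in H1975, which was 7 with the 6 h arrays alone. With no filter on dim probes 2 HOX and 5 cancer testis genes were higher in H1975. With run as a block 2 interactions with time were called. The cause of these changes was not tested, other than the smaller number of probes under the stricter filter.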

Other observations

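The line difference was uneven along the genome. The median difference over the genes of a chromosome, beside 0.04 over all genes, was highest for chromosome 22 (0.67 over 410 genes), 19 (0.55 over 1222 genes) and 7 (0.42 over 779 genes). It was lowest for chromosome 15 (-0.46 over 540 genes), 8 (-0.44 over 543 genes) and 12 (-0.35 over 819 genes). Of the genes of chromosome 22, 33.4% were called higher in H1975 and 8.54% higher in A549, and of chromosome 15, 10% and 28.7%. On the Pirfenidone arrays, other samples of the same lines on slides shared with PBS arrays, the medians were 0.69 for chromosome 22 and -0.42 for chromosome 15. No measure of DNA copy number was used here.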
